A study of Mus musculus with 4 samples.

Results

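Endothelial nuclei were the nuclei of blood vessel lining cells in mouse spinal dorsal horn, the part of the spinal cord that receives sensory input. They were taken from single-nucleus RNA sequencing by their raw counts of unique molecular identifiers (UMIs), each UMI standing for 1 captured transcript. The nuclei were selected on these measured counts. Barcodes with 300 or more genes and less than 5% of UMIs from mitochondrial genes were kept. A kept barcode was called endothelial with at least 4 UMIs, and at least 0.3% of its UMIs, from 8 endothelial genes (Flt1, Cldn5, Pecam1, Tek, Mecom, Ptprb, Adgrl4, Slco1a4), summed. That sum had to exceed the sum of 6 mural (vessel-wall) genes (Pdgfrb, Rgs5, Abcc9, Atp13a5, Kcnj8, Notch3), and 5 neuronal transcripts (Snap25, Rbfox3, Syt1, Snhg11, Meg3) had to stay under 2% of UMIs. The rule found 395 endothelial nuclei among 112194 kept nuclei, of 112746 barcodes.

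The 4 libraries were Gpr37l1 knockout (Gpr37l1-/-, KO) 1 day after spared nerve injury (SNI), wild type (Gpr37l1+/+, WT) 1 day after SNI, KO naive and WT naive, with 1 library per group. Gpr37l1 encodes an orphan G protein-coupled receptor known from astrocytes, and SNI cuts branches of the sciatic nerve while sparing the sural branch. All 4 groups were fresh dorsal horn tissue taken through the same nuclear isolation and 10x 3' capture. The labels give no strain, age or number of pooled animals, and the knockout is labelled as a whole-animal genotype with no Cre driver or promoter. For the KO naive and WT SNI libraries the treatment label contradicts the title; titles and library names, which match each other, define the groups here. The KO SNI library is also labelled total RNA and the other 3 polyA RNA. With 1 library per group there is no replicate, so no test between groups was made. Intervals are 95% and cover counting error only, not the spread between animals or isolations.

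The endothelium of brain and spinal cord forms the blood-brain and blood-spinal cord barrier. Its cells are sealed by tight junctions, carry transporters for glucose, amino acids and organic anions, and keep this state through Wnt signals from neighbouring tissue, with VEGF and angiopoietin receptors controlling survival and leakiness. Along the vessel the cells differ by zone, from arterial through capillary to venous, and the venous zone is where circulating leukocytes adhere. Transcription factors of the ETS family, among them Erg, Fli1 and Ets1, bind promoters and enhancers of many endothelial genes.

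Promoters of the marker genes are shown because these genes define the nuclei together. RefSeq promoters (build GRCm38.p6) were found for 6 of the 8 rule genes and 15 of the 24 endothelial markers outside the rule. The 250 bases before the start were searched on both strands for GGAAG, an ETS core motif chosen after seeing the data. GGAAG was found in 4 of the 6 rule genes and in 15 of the 15 outside markers, counting a gene if any of its listed promoters held it, against 64.068% of all 32851 promoters. The Wnt-type motif CTTTGAA was found in 0 of the 6 and, through Abcb1a, in 1 of the 15, against 4.456% of all promoters. Both backgrounds count single promoters, while a gene with several promoters has more chances to match, so the gene counts are not directly comparable. Mecom, Erg and Egfl7 each also had a listed promoter without GGAAG. Capitals mark GGAAG or its reverse complement. The Flt1 window (chr5:147726012-147726261, minus strand) held 3 matches, the Adgrl4 window (chr3:151437632-151437881, plus strand) 2, the Slco1a4 window (chr6:141856221-141856470, minus strand) 2 and the Cldn5 window (chr16:18776597-18776846, plus strand) 0.
Flt1: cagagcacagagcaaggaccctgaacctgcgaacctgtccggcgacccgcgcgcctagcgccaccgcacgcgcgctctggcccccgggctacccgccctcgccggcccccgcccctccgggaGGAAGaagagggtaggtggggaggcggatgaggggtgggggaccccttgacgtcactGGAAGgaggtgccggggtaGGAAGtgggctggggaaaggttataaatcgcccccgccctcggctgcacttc
Adgrl4: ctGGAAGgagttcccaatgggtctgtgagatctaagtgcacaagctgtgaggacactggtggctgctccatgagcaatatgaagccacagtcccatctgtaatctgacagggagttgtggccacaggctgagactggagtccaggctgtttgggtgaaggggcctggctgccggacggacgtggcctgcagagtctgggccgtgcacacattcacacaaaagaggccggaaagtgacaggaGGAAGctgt
Slco1a4: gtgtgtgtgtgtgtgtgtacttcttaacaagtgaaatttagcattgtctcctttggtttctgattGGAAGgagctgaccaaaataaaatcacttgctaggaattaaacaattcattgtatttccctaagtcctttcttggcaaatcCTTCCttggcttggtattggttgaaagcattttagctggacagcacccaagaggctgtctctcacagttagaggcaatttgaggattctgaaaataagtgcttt
Cldn5: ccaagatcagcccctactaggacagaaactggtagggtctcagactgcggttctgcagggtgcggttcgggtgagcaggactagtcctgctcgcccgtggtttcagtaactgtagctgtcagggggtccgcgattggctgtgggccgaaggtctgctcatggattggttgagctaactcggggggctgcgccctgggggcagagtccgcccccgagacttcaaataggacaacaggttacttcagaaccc
A match is a description of the letters and not a bound site.

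Endothelial nuclei numbered 140 in KO SNI, 96 in WT SNI, 121 in KO naive and 38 in WT naive nuclei, of 27891, 27113, 37497 and 19693 kept nuclei in the same order. Their median depth was 1476 UMIs in KO SNI, 1262 UMIs in WT SNI, 1295 UMIs in KO naive and 842 UMIs in WT naive nuclei, and their summed UMIs without mitochondrial genes were 320936 in KO SNI, 193562 in WT SNI, 252967 in KO naive and 51031 in WT naive nuclei. The 3 deepest nuclei held 14.5% in KO SNI, 13.5% in WT SNI, 14.7% in KO naive and 28.0% in WT naive nuclei of the UMIs with mitochondrial genes included, the largest share being that of WT naive. Whole libraries held 35197290 to 69572640 UMIs. Pairs of libraries shared 162 to 293 barcode sequences over all barcodes, and 0 among endothelial nuclei. The doublet caller marked 9.72% of kept nuclei and 17 endothelial nuclei (4.304%), 16 of them in KO SNI, and they were kept.

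Levels are given as CPM, the summed UMIs of a gene in the endothelial nuclei of 1 library divided by all their UMIs without mitochondrial genes and scaled to the usual CPM total. The 8 rule genes chose the nuclei, so their levels describe the selection. Flt1, a VEGF receptor, stood at 3929 CPM in KO SNI, 4495 CPM in WT SNI, 3083 CPM in KO naive and 4369.9 CPM in WT naive nuclei. Slco1a4, an organic anion transporter of the barrier, stood at 2303 CPM in KO SNI, 2278 CPM in WT SNI, 1826 CPM in KO naive and 2489 CPM in WT naive nuclei. Cldn5, the tight junction claudin of brain endothelium, stood at 1228 CPM in KO SNI, 1116 CPM in WT SNI, 1024 CPM in KO naive and 1156 CPM in WT naive nuclei. These 3 genes kept within 1.5-fold across the libraries, with KO naive lowest in each. Mecom, a zinc finger transcription factor, had 1838 CPM in KO SNI, 1710.0 CPM in WT SNI, 1372 CPM in KO naive and 1744 CPM in WT naive nuclei. Adgrl4, an adhesion G protein-coupled receptor, had 1290.0 CPM in KO SNI, 1524 CPM in WT SNI, 921 CPM in KO naive and 1097 CPM in WT naive nuclei. Ptprb, a receptor phosphatase acting on Tie2 and VE-cadherin, had 1421 CPM in KO SNI, 1297 CPM in WT SNI, 779 CPM in KO naive and 1333 CPM in WT naive nuclei. Pecam1, an adhesion molecule at cell contacts, was at 399 CPM in KO SNI, 393 CPM in WT SNI, 376 CPM in KO naive and 549 CPM in WT naive nuclei. Tek, the angiopoietin receptor Tie2, was at 393 CPM in KO SNI, 429 CPM in WT SNI, 395 CPM in KO naive and 862 CPM in WT naive nuclei. For Ptprb the KO naive nuclei were the low group and for Tek the WT naive nuclei were the high one. Summed, the rule genes were at 12800.1 CPM in KO SNI, 13241 CPM in WT SNI, 9776 CPM in KO naive and 13599.6 CPM in WT naive nuclei, against 28.3 to 55.7 CPM in all other kept nuclei.

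Markers that the rule did not use were also at high levels. The 24 further endothelial markers summed to 11681 CPM in KO SNI, 11939 CPM in WT SNI, 9167 CPM in KO naive and 11562 CPM in WT naive nuclei, against 742 to 831 CPM in all other kept nuclei. Over the pooled libraries, 299 of 3840 genes with at least 50 UMIs were at least 10-fold higher in endothelial than in other nuclei (7.79%), and 19 of the 22 outside markers deep enough for this count were among them. Rapgef4, Shank3 and Tjp1 were not, at 1.63-fold, 3.49-fold and 3.23-fold. At least 3 of the outside markers were detected in 92.4% of endothelial nuclei. That share was 78.3% of the 23 nuclei with a rule sum of 4 and 71.4% of the 21 with a sum of 5, against 42.3% of the 26 nuclei just outside the limit, with a sum of 3.

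**Figure D1:**
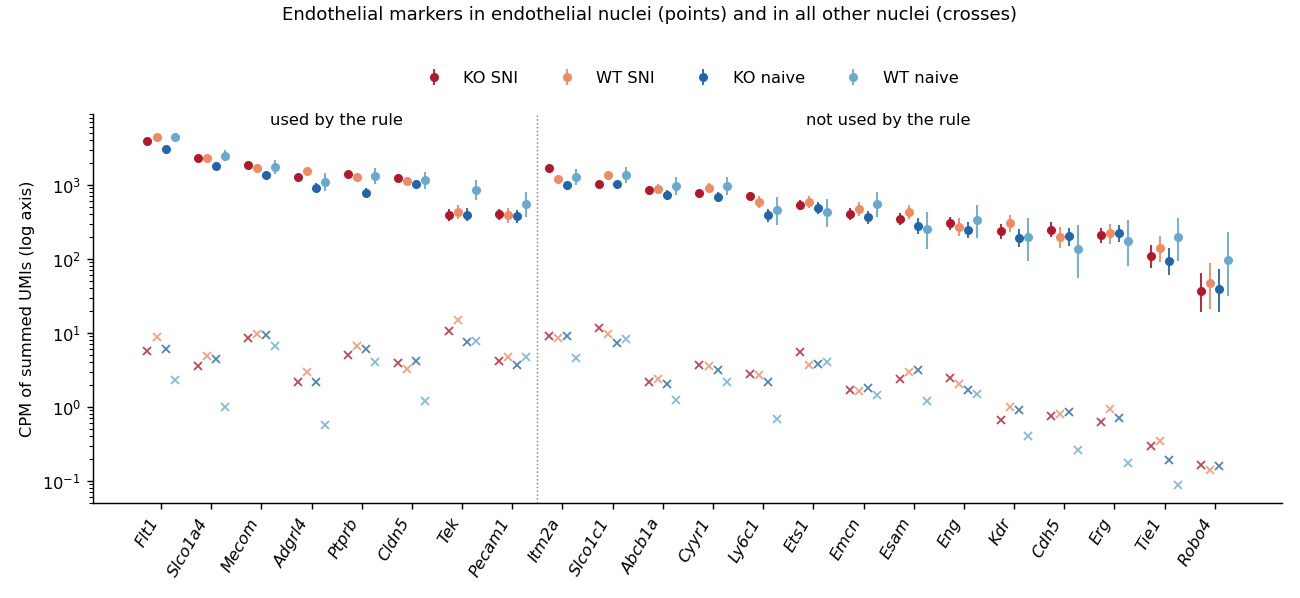
CPM (log axis) of the 8 rule genes and 14 endothelial markers outside the rule in KO SNI, WT SNI, KO naive and WT naive endothelial nuclei (points, bars are 95% counting intervals) and in all other kept nuclei of the same library (crosses, not drawn at 0). Each gene lies far above its crosses in each library, and WT naive intervals are the widest.

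Among genes outside the rule with the highest ratio over other nuclei were transcription factors, transporters and vessel genes. Zfp366, a zinc finger repressor, was 695-fold higher, and Lef1, the nuclear effector of Wnt signals, 622-fold. The efflux pump gene Abcb1a (P-glycoprotein) was 411-fold higher, and Slc22a8, an organic anion transporter, 365-fold. Vwf, the gene of von Willebrand factor, was 396-fold higher and Klf2, a flow-responsive transcription factor, 327-fold. These ratios describe the selected nuclei and were not tested.

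Transcripts of other cell types were measured in the same nuclei. The mural list (13 genes) was at 2795 CPM in the pooled endothelial nuclei, against 7105 CPM in the 111 mural nuclei and 64.7 CPM in all other kept nuclei. Of the 395 endothelial nuclei, 204 had no UMI of the 6 mural genes and 105 had 5 or more. The nuclei without one had a median of 853 UMIs and those with 5 or more a median of 3615 UMIs. Rgs5, a pericyte marker, made up 66.2% of these mural UMIs. After thinning each nucleus to 800 UMIs, Rgs5 was found in 45.6% of endothelial nuclei against 0.263% of astrocyte nuclei. Pdgfrb, the pericyte receptor, was found in 19.4% of the nuclei with Rgs5 and 2.50% of those without. Pericyte RNA attached to endothelial nuclei and expression within them cannot be told apart here.

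**Figure D2:**
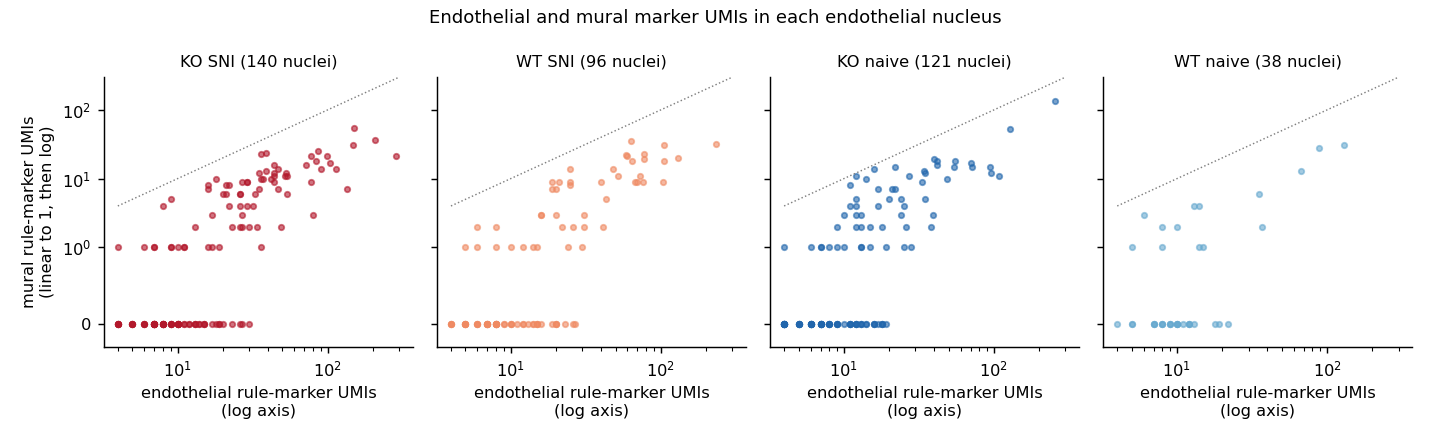
UMIs of the 8 endothelial rule genes (x axis, log) and of the 6 mural rule genes (y axis, linear to 1 and log above) in each endothelial nucleus of the KO SNI, WT SNI, KO naive and WT naive libraries; the dotted line marks equal sums. Of the 395 nuclei, 204 lie at 0 mural UMIs, and 105 lie at 5 or more.

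Neuronal rule transcripts were at 4291 CPM in KO SNI, 4521 CPM in WT SNI, 6092 CPM in KO naive and 4546 CPM in WT naive nuclei, highest in KO naive, against 16079 CPM over all other kept nuclei. The microglia list (8 genes) was at 583 CPM in KO SNI, 299.6 CPM in WT SNI, 241 CPM in KO naive and 392 CPM in WT naive nuclei, close to its 628 CPM in KO SNI, 382 CPM in WT SNI, 228 CPM in KO naive and 323 CPM in WT naive libraries for other nuclei. The fibroblast list (10 genes) was at 302 CPM in KO SNI, 51.7 CPM in WT SNI, 150.2 CPM in KO naive and 58.8 CPM in WT naive nuclei, against 5109.8 CPM in the 25 fibroblast nuclei. The astrocyte list was at 520.4 CPM in KO SNI, 548 CPM in WT SNI, 957 CPM in KO naive and 353 CPM in WT naive nuclei, against 8167 CPM in astrocyte nuclei. The oligodendrocyte precursor list was at 330.3 CPM in KO SNI, 408 CPM in WT SNI, 652 CPM in KO naive and 255 CPM in WT naive nuclei, and the oligodendrocyte list at 1564 CPM in KO SNI, 1664 CPM in WT SNI, 2036 CPM in KO naive and 1548 CPM in WT naive nuclei. Glial lists were thus highest in KO naive, as the neuronal transcripts were, except the microglia list, which was highest in KO SNI. Red blood cell transcripts were at 12.5 CPM in KO SNI, 919.6 CPM in WT SNI, 0 CPM in KO naive and 58.8 CPM in WT naive nuclei, and 170 of the 178 WT SNI UMIs lay in 1 nucleus. The leukocyte list had 15 UMIs in KO SNI, 2 UMIs in WT SNI, 0 UMIs in KO naive and 0 UMIs in WT naive nuclei, with Cd3e, Cd8a, S100a8, S100a9 and Ly6g at 0 UMIs. The part of these transcripts in the differences below was not tested.

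Gpr37l1 checked the genotype labels. It had 0 UMIs in KO SNI, 7 UMIs in WT SNI, 0 UMIs in KO naive and 1 UMI in WT naive nuclei, against 0.255 CPM in KO SNI, 25.8 CPM in WT SNI, 0.334 CPM in KO naive and 14.3 CPM in WT naive libraries in all other kept nuclei. Both knockout libraries were thus at or near 0. The WT UMIs amount to 36.2 CPM in WT SNI endothelial nuclei (interval 14.5 to 74.5) and 19.6 CPM in WT naive ones (0.5 to 109), intervals that include the level of other nuclei. Its relative Gpr37 had 8 UMIs in KO SNI, 10 UMIs in WT SNI, 13 UMIs in KO naive and 2 UMIs in WT naive nuclei. Psap, the precursor of the proposed ligand prosaposin, was at 374 CPM in KO SNI, 377 CPM in WT SNI, 459 CPM in KO naive and 333 CPM in WT naive nuclei, and its log2 ratios were -0.01 (-0.44 to 0.43) for KO SNI over WT SNI and 0.46 (-0.28 to 1.29) for KO naive over WT naive.

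Endothelial nuclei made up 0.502% (0.422 to 0.592) of kept nuclei in KO SNI, 0.354% (0.287 to 0.432) in WT SNI, 0.323% (0.268 to 0.386) in KO naive and 0.193% (0.137 to 0.265) in WT naive, with exact binomial intervals. The share was highest in KO SNI and lowest in WT naive, and the interval of WT SNI overlapped those of KO SNI and KO naive. Mural nuclei numbered 29 in KO SNI, 26 in WT SNI, 46 in KO naive and 10 in WT naive. A share depends on the dissection, on how many vessel nuclei survived isolation and on the depth at which a nucleus passes the rule, which cannot be told apart from vessel density. Median depth of kept nuclei was 1286 UMIs in KO SNI, 1489 UMIs in WT SNI, 1510 UMIs in KO naive and 1446 UMIs in WT naive nuclei.

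Barrier genes were detected in each library. Barrier transporters (31 genes, the rule gene Slco1a4 included, which the selection raises) summed to 13118 CPM in KO SNI, 14125 CPM in WT SNI, 11144 CPM in KO naive and 13972 CPM in WT naive nuclei, and 18 of the 27 deep enough, again with Slco1a4, were at least 10-fold over other nuclei, against 7.79% of all genes. Slc2a1, the glucose transporter GLUT1, was at 807 CPM in KO SNI, 951 CPM in WT SNI, 779 CPM in KO naive and 764 CPM in WT naive nuclei. Abcb1a was at 851 CPM in KO SNI, 878 CPM in WT SNI, 727 CPM in KO naive and 979.8 CPM in WT naive nuclei. Slco1c1, a thyroid hormone transporter, was at 1028 CPM in KO SNI, 1348 CPM in WT SNI, 1012 CPM in KO naive and 1372 CPM in WT naive nuclei. Across the libraries these transporters differed by at most 1.5-fold between the lowest and the highest. The junction list (19 genes, Cldn5 included) summed to 6188 CPM in KO SNI, 6034 CPM in WT SNI, 5064 CPM in KO naive and 6290.3 CPM in WT naive nuclei. Ocln, the tight junction protein occludin, was at 206 CPM in KO SNI, 305 CPM in WT SNI, 170.0 CPM in KO naive and 333 CPM in WT naive nuclei, lower in both KO libraries than in both WT libraries. The Wnt list (21 genes) summed to 3985 CPM in KO SNI, 3658 CPM in WT SNI, 3301 CPM in KO naive and 3978 CPM in WT naive nuclei, and Lef1 was at 1209 CPM in KO SNI, 1028 CPM in WT SNI, 779 CPM in KO naive and 1391 CPM in WT naive nuclei.

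Signalling and matrix genes were detected in each library. The VEGF and angiopoietin list (16 genes, with the rule genes Flt1, Tek and Ptprb) summed to 7201 CPM in KO SNI, 7755 CPM in WT SNI, 5479 CPM in KO naive and 8191 CPM in WT naive nuclei. Notch genes summed to 1558 CPM in KO SNI, 1767 CPM in WT SNI, 1660.3 CPM in KO naive and 1705 CPM in WT naive nuclei, and TGF-beta and BMP genes to 2596 CPM in KO SNI, 2774 CPM in WT SNI, 2376 CPM in KO naive and 2841 CPM in WT naive nuclei. Endothelial transcription factors (28 genes, with the rule gene Mecom) summed to 13012 CPM in KO SNI, 11939 CPM in WT SNI, 10737 CPM in KO naive and 12012 CPM in WT naive nuclei. Basement membrane and matrix genes, with Vwf among them, summed to 4312 CPM in KO SNI, 4107 CPM in WT SNI, 2969 CPM in KO naive and 3782 CPM in WT naive nuclei, lowest in KO naive. Cell cycle genes had 13 UMIs in KO SNI, 12 UMIs in WT SNI, 18 UMIs in KO naive and 4 UMIs in WT naive nuclei, too few to compare. Selp, Sele and Esm1, genes of activated or sprouting endothelium, had 0 UMIs in the 4 libraries, as did the chemokine gene Cxcl10 and the lymphatic genes Ccl21a and Mmrn1.

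Genes known from vessel zones were found in different shares of the nuclei. After thinning to 800 UMIs, which left 294 nuclei and dropped 36 in KO SNI, 29 in WT SNI, 20 in KO naive and 16 in WT naive nuclei, the capillary gene Cxcl12, a chemokine, was found in 38.1% of nuclei and Car4, a carbonic anhydrase of capillaries, in 18.4%. The venous genes Vwf and Il1r1, the interleukin-1 receptor, were found in 10.9% and 12.9%, and the arterial gene Mgp in 5.10%. In astrocyte nuclei thinned alike these shares were 0.338%, 0.3%, 0.075%, 0.113% and 0.263%. Il1r1 was found in 31.2% of the 32 nuclei with Vwf and 10.7% of the 262 without. Cxcl12 was found in 18.4% of the 38 nuclei with Il1r1 and 41.02% of the 256 without. Slc38a5, a further venous gene, did not follow Il1r1, at 5.26% of nuclei with it and 5.86% of those without. Over whole lists, a capillary UMI was found in 93.3% of the nuclei with a venous UMI and 85.9% of those without, and a venous UMI in 70.3% of the nuclei with an arterial UMI (Arl15 left out) and 71.6% of those without. In astrocyte nuclei thinned alike, a venous, capillary or arterial list UMI (Arl15 left out) was found in 36.6%, 31.3% and 17.0%. A list UMI is thus not particular to endothelial nuclei, and the list shares cannot say whether the nuclei part into zones. The gene pairs above are examples. These shares pool nuclei of the 4 libraries and are a description, with no test.

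The shares of single venous genes were set beside each other by library. Il1r1 was found in 20.2% (12.96 to 29.2) of thinned KO SNI nuclei, 14.9% (7.40 to 25.7) of WT SNI, 2.97% (0.617 to 8.44) of KO naive and 18.2% (5.19 to 40.3) of WT naive nuclei. Vwf was found in 14.4% in KO SNI, 10.4% in WT SNI, 5.94% in KO naive and 18.2% in WT naive nuclei. KO naive was the low library for both genes. For Il1r1 its interval lies below that of KO SNI and overlaps those of WT SNI and WT naive. For Vwf its interval (2.21 to 12.5) overlaps those of all the other libraries. Other venous genes did not share this order: Flrt2 was found in 23.1% in KO SNI, 8.96% in WT SNI, 20.8% in KO naive and 13.6% in WT naive nuclei and Slc38a5 in 8.65% in KO SNI, 0% in WT SNI, 6.93% in KO naive and 4.54% in WT naive nuclei. Unthinned, Il1r1 was found in 27.1% in KO SNI, 20.8% in WT SNI, 9.09% in KO naive and 23.7% in WT naive nuclei and Vwf in 24.3% in KO SNI, 26.0% in WT SNI, 9.92% in KO naive and 21.1% in WT naive nuclei. Cxcl12 was found in 41.3% in KO SNI, 38.8% in WT SNI, 32.7% in KO naive and 45.5% in WT naive nuclei after thinning, and Car4 in 20.2% in KO SNI, 16.4% in WT SNI, 16.8% in KO naive and 22.7% in WT naive nuclei. KO naive was again the lowest library for Cxcl12, by a smaller ratio, and WT SNI was for Car4.

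**Figure D3:**
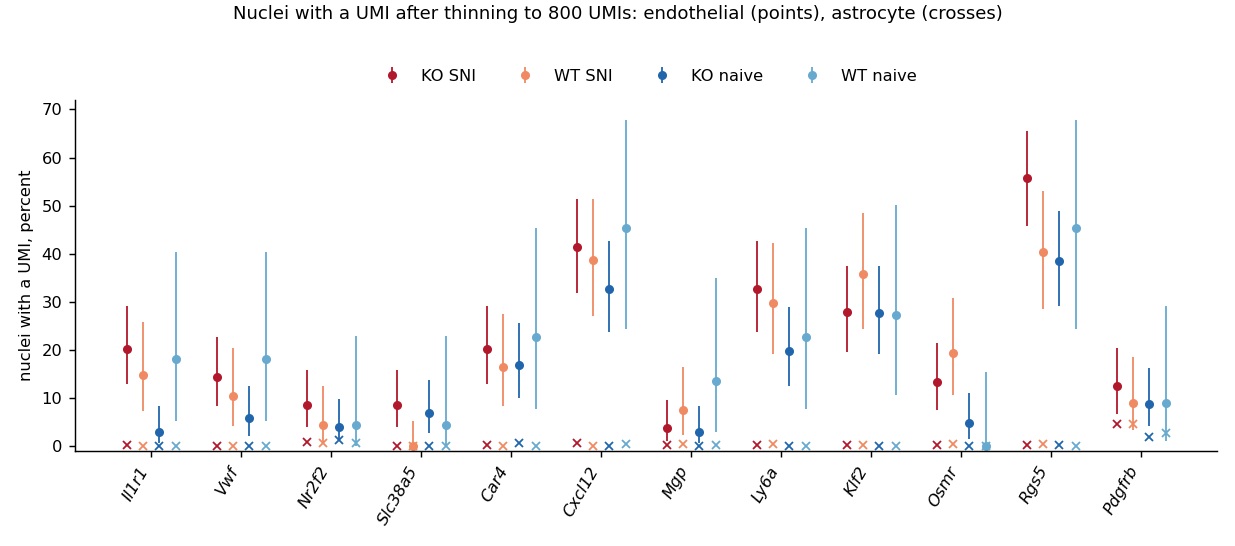
Percent of endothelial nuclei with a UMI of each gene after thinning to 800 UMIs in the KO SNI, WT SNI, KO naive and WT naive libraries (points, bars are exact 95% binomial intervals) and of astrocyte nuclei thinned alike (crosses). Il1r1 and Vwf are lowest in KO naive. For Il1r1 the KO naive interval lies below that of KO SNI only, while the intervals of Vwf, Cxcl12 and Car4 overlap across the 4 libraries.

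Injury in the knockout was read from KO SNI over KO naive, where 5422 genes were deep enough to compare, meaning that their pooled level predicts at least 10 UMIs in the smaller sum. Of these, 219 were at least 2-fold higher in KO SNI (4.04%) and 234 at least 2-fold lower (4.32%), 8.35% in all, with a median log2 ratio of 0.00. In the venous list, 8 of its 10 compared genes were at least 2-fold higher in KO SNI and 0 lower, with a median log2 ratio of 1.43. Its summed level was 3904 CPM in KO SNI, 2671 CPM in WT SNI, 1538 CPM in KO naive and 2959 CPM in WT naive nuclei, a log2 ratio of 1.34 (1.18 to 1.51) for KO SNI over KO naive, against 0.00 in all other nuclei. KO naive nuclei were thus the low group, below both WT libraries as well as KO SNI. The venous list is not particular to endothelial nuclei: pooled, it was at 2822 CPM in endothelial and 3418 CPM in fibroblast nuclei, and the fibroblast list was itself higher in KO SNI than in KO naive endothelial nuclei (above). Neuronal transcripts and the glial lists other than microglia were highest in KO naive, and the microglia list was highest in KO SNI. The part of any of these in the venous difference was not tested.

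Il1r1 had 184 UMIs in KO SNI, 59 UMIs in WT SNI, 20 UMIs in KO naive and 21 UMIs in WT naive nuclei, that is 573 CPM in KO SNI, 305 CPM in WT SNI, 79.1 CPM in KO naive and 412 CPM in WT naive nuclei. It was 7.25-fold higher in KO SNI than in KO naive nuclei, a log2 ratio of 2.86 (2.19 to 3.60). Vwf had 145 UMIs in KO SNI, 47 UMIs in WT SNI, 16 UMIs in KO naive and 18 UMIs in WT naive nuclei, that is 452 CPM in KO SNI, 243 CPM in WT SNI, 63.2 CPM in KO naive and 353 CPM in WT naive nuclei, a log2 ratio of 2.84 (2.09 to 3.68) for KO SNI over KO naive. 1 KO SNI nucleus of 18101 UMIs held 61 of the 145 Vwf UMIs and 41 of the 184 Il1r1 UMI. Without the richest nucleus of each library the log2 ratio was 2.91 for Il1r1 and 2.59 for Vwf. Gm5127, a predicted gene, was at 361 CPM in KO SNI, 212 CPM in WT SNI, 39.5 CPM in KO naive and 235 CPM in WT naive nuclei, a log2 ratio of 3.19 (2.26 to 4.29). Nr2f2, the transcription factor COUP-TFII of venous identity, was at 181 CPM in KO SNI, 93.0 CPM in WT SNI, 63.2 CPM in KO naive and 118 CPM in WT naive nuclei, a log2 ratio of 1.51 (0.70 to 2.41). Slc38a5, an amino acid transporter of veins, was at 212 CPM in KO SNI, 119 CPM in WT SNI, 83.0 CPM in KO naive and 78.4 CPM in WT naive nuclei, a log2 ratio of 1.35 (0.63 to 2.13). Vcam1, an adhesion molecule for leukocytes, was at 103 CPM in KO SNI, 31 CPM in WT SNI, 23.7 CPM in KO naive and 39.2 CPM in WT naive nuclei, a log2 ratio of 2.12 (0.84 to 3.66) that rests on 6 KO naive UMIs, 4 of them in 1 nucleus. For Il1r1, Vwf and Gm5127 both WT libraries stood above KO naive and below KO SNI, while Slc38a5 was low in both naive libraries.

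**Figure D4:**
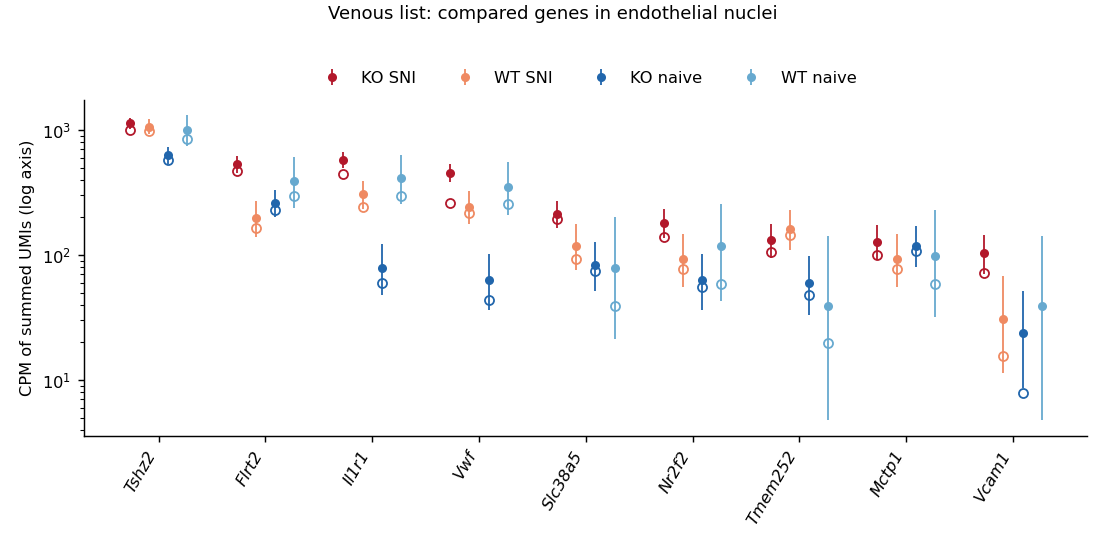
CPM (log axis) of 9 of the 10 compared venous genes in KO SNI, WT SNI, KO naive and WT naive endothelial nuclei; bars are 95% counting intervals and open circles give the CPM left when the 1 richest nucleus of the gene is taken out. Il1r1 and Vwf lie lowest in KO naive, and among the KO SNI levels that of Vwf drops most without 1 nucleus.

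Inflammatory and interferon lists were also higher in KO SNI than in KO naive. The inflammatory list (38 genes), which shares Il1r1, Vcam1 and others with the venous list, had 4 of 12 compared genes at least 2-fold higher and 0 lower, with a median log2 ratio of 0.45 and a summed one of 0.80 (0.61 to 0.99). Osmr, the oncostatin M receptor, was at 190.1 CPM in KO SNI, 217 CPM in WT SNI, 83.0 CPM in KO naive and 39.2 CPM in WT naive nuclei, a log2 ratio of 1.20 (0.46 to 1.99). Il6ra, the interleukin-6 receptor, was at 106 CPM in KO SNI, 72.3 CPM in WT SNI, 35.6 CPM in KO naive and 0 CPM in WT naive nuclei, a log2 ratio of 1.57 (0.48 to 2.82). The interferon and antigen presentation list (26 genes) had 2 of 15 compared genes at least 2-fold higher and 14 above a log2 ratio of 0, with a median of 0.67. Its sum was 3776 CPM in KO SNI, 3513 CPM in WT SNI, 2435 CPM in KO naive and 2802 CPM in WT naive nuclei, a log2 ratio of 0.63 (0.49 to 0.78) in endothelial and 0.39 in all other nuclei. Ly6e, an interferon-induced gene, was at 421 CPM in KO SNI, 480.5 CPM in WT SNI, 225 CPM in KO naive and 353 CPM in WT naive nuclei, a log2 ratio of 0.90 (0.44 to 1.37), and Ifitm3, an interferon-induced membrane protein, was at 365 CPM in KO SNI, 341 CPM in WT SNI, 225 CPM in KO naive and 255 CPM in WT naive nuclei, a log2 ratio of 0.69 (0.23 to 1.18). H2-K1, an MHC class I gene with near-identical copies, was at 383 CPM in KO SNI, 232 CPM in WT SNI, 241 CPM in KO naive and 157 CPM in WT naive nuclei, a log2 ratio of 0.67 (0.21 to 1.14). The same list gave 0.33 (0.06 to 0.60) for WT SNI over WT naive, and the difference between the genotypes was not tested.

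Several further genes were at least 2-fold higher in KO SNI than in KO naive. Usp53, a protein of cell junctions, was at 418 CPM in KO SNI, 176 CPM in WT SNI, 98.8 CPM in KO naive and 274 CPM in WT naive nuclei, a log2 ratio of 2.08 (1.46 to 2.76) over KO naive, against 0.67 in other nuclei. Ctsc, the protease cathepsin C, was at 162 CPM in KO SNI, 67.2 CPM in WT SNI, 27.7 CPM in KO naive and 196 CPM in WT naive nuclei, a log2 ratio of 2.55 (1.41 to 3.93). Pglyrp1, a peptidoglycan recognition protein, was at 271 CPM in KO SNI, 294 CPM in WT SNI, 94.9 CPM in KO naive and 255 CPM in WT naive nuclei, a log2 ratio of 1.51 (0.85 to 2.23). Lrmda was at 389 CPM in KO SNI, 181 CPM in WT SNI, 123 CPM in KO naive and 274 CPM in WT naive nuclei, a log2 ratio of 1.67 (1.09 to 2.29). In each of these 4 genes KO naive was the lowest library. Ctsc was highest in WT naive and Pglyrp1 in WT SNI. The matrix list, which shares Vwf with the venous list, had a summed log2 ratio of 0.54 (0.41 to 0.67), against 0.23 in other nuclei. The part of Vwf in that sum was not tested. Col4a1, a collagen of the basement membrane, was at 368 CPM in KO SNI, 160.2 CPM in WT SNI, 158 CPM in KO naive and 196 CPM in WT naive nuclei, a log2 ratio of 1.22 (0.69 to 1.77) that was 0.93 without the richest nuclei. Fn1, fibronectin, was at 421 CPM in KO SNI, 470.1 CPM in WT SNI, 253 CPM in KO naive and 314 CPM in WT naive nuclei, a log2 ratio of 0.73 (0.29 to 1.19). Elk3, an ETS factor, was at 321 CPM in KO SNI, 222 CPM in WT SNI, 134 CPM in KO naive and 196 CPM in WT naive nuclei, a log2 ratio of 1.26 (0.68 to 1.86).

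Some high ratios were of genes known from other cells. Ly86, expressed by myeloid cells, had 30 UMIs in KO SNI, 2 UMIs in WT SNI, 0 UMIs in KO naive and 0 UMIs in WT naive nuclei, at least 7.88-fold higher in KO SNI than in KO naive against a floor of 3 UMIs for the KO naive library. C1qa, a complement gene of microglia, had 24 UMIs in KO SNI, 6 UMIs in WT SNI, 3 UMIs in KO naive and 1 UMI in WT naive nuclei. In all other nuclei the log2 ratios were 2.93 for Ly86 and 1.93 for C1qa, and the microglia list was highest in KO SNI in both classes of nuclei. Col3a1, a fibrillar collagen of fibroblasts, had 25 UMIs in KO SNI, 4 UMIs in WT SNI, 3 UMIs in KO naive and 2 UMIs in WT naive nuclei, beside the fibroblast list, which was also highest in KO SNI. Their part in the other differences was not tested. Adgrg6, an adhesion G protein-coupled receptor, had 41 UMIs in KO SNI, 8 UMIs in WT SNI, 4 UMIs in KO naive and 10 UMIs in WT naive nuclei, and 1 KO SNI nucleus held 18 of the KO SNI ones. Tll1, a metalloprotease gene, had 32 UMIs in KO SNI, 3 UMIs in WT SNI, 4 UMIs in KO naive and 2 UMIs in WT naive nuclei, and Myof, a membrane repair protein, had 45 UMIs in KO SNI, 9 UMIs in WT SNI, 8 UMIs in KO naive and 6 UMIs in WT naive nuclei, and for each the richest KO SNI nucleus held 18. For Tll1 the log2 ratio for KO SNI over KO naive was 2.66 (1.16 to 4.62), and 1.88 without the richest nuclei.

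Neuronal genes were among those lowest in KO SNI against KO naive. Gabrb1, a GABA-A receptor subunit, was at 112 CPM in KO SNI, 232 CPM in WT SNI, 415 CPM in KO naive and 118 CPM in WT naive nuclei, a log2 ratio of -1.89 (-2.48 to -1.33). Kcnip4, a potassium channel partner, was at 1056 CPM in KO SNI, 1379 CPM in WT SNI, 2237 CPM in KO naive and 1372 CPM in WT naive nuclei, a log2 ratio of -1.08 (-1.28 to -0.89). Nrg1, neuregulin 1, was at 324 CPM in KO SNI, 377 CPM in WT SNI, 779 CPM in KO naive and 216 CPM in WT naive nuclei, a log2 ratio of -1.26 (-1.62 to -0.92). Syn2, synapsin 2, was at 74.8 CPM in KO SNI, 114 CPM in WT SNI, 233 CPM in KO naive and 137 CPM in WT naive nuclei, a log2 ratio of -1.64 (-2.39 to -0.93). All 4 were at 0.28 to 0.42 times their level in other nuclei, and KO naive was the highest library in each, as for the neuronal rule transcripts. Vegfc, a lymphangiogenic growth factor, had 11 UMIs in KO SNI, 4 UMIs in WT SNI, 28 UMIs in KO naive and 8 UMIs in WT naive nuclei, a log2 ratio of -1.69 (-2.85 to -0.64), and Dusp1, a stress-induced phosphatase, had 41 UMIs in KO SNI, 28 UMIs in WT SNI, 66 UMIs in KO naive and 5 UMIs in WT naive nuclei, a log2 ratio of -1.03 (-1.63 to -0.45). Both came to 0.050, near 0, in nuclei without mural UMIs, which hold fewer UMIs.

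Of 33 named genes past 2-fold in KO SNI over KO naive, 27 stayed past it in the same direction without the 3 deepest nuclei of each library (not Apod, Col4a1, Dusp1, Flrt2, Kcnip4, Nrp2), and 31 with neuronal transcripts held under 1% (not Ctnna1, Kcnip4). In the 204 nuclei without mural UMIs, which are also the shallower ones, 19 of 32 did. Those no longer past 2-fold there were Apod, Ctsc, Dusp1, Elk3, Gbp3, Kcnip4, Lrmda, Nr2f2, Nrg1, Nrp2, Syn2, Vcam1, Vegfc. With every nucleus weighted alike 28 of 33 did (not Apod, Dusp1, Flrt2, Nr2f2, Nrp2). The settings without the deepest nuclei or without mural UMIs were chosen after seeing the data.

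Injury in wild type was read from WT SNI over WT naive, with 1022 genes compared because WT naive had only 38 endothelial nuclei. Of these, 44 were at least 2-fold higher in WT SNI (4.31%) and 16 lower (1.57%), 5.87% in all, with a median log2 ratio of 0.02. The venous list was not higher: 0 of its 5 compared genes were past 2-fold, and the summed log2 ratio was -0.15 (-0.41 to 0.12). Il1r1 had a log2 ratio of -0.43 (-1.17 to 0.36) and Vwf of -0.54 (-1.35 to 0.33), with intervals that include 0. Id1, a target of BMP signals, was at 327 CPM in KO SNI, 537 CPM in WT SNI, 273 CPM in KO naive and 196 CPM in WT naive nuclei, a log2 ratio of 1.46 (0.52 to 2.56). Klf2 was at 608 CPM in KO SNI, 641 CPM in WT SNI, 549 CPM in KO naive and 274 CPM in WT naive nuclei, a log2 ratio of 1.22 (0.42 to 2.14). Tbc1d4, a regulator of glucose transporter traffic, was at 368 CPM in KO SNI, 775 CPM in WT SNI, 352 CPM in KO naive and 314 CPM in WT naive nuclei, a log2 ratio of 1.31 (0.56 to 2.15). Hspa5, the chaperone BiP, was at 165 CPM in KO SNI, 258 CPM in WT SNI, 186 CPM in KO naive and 58.8 CPM in WT naive nuclei, a log2 ratio of 2.14 (0.51 to 4.46) that rests on 3 WT naive UMIs. All 4 genes were highest in WT SNI and lowest in WT naive. Immediate early genes summed to 1075 CPM in KO SNI, 1385 CPM in WT SNI, 1079 CPM in KO naive and 784 CPM in WT naive nuclei, a log2 ratio of 0.82 (0.34 to 1.34), against 0.57 in other nuclei.

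Hbb-bs, a haemoglobin gene with a near-identical copy, had 2 UMIs in KO SNI, 116 UMIs in WT SNI, 0 UMIs in KO naive and 1 UMI in WT naive nuclei, and 111 of the WT SNI UMIs lay in 1 nucleus. With the richest nuclei its log2 ratio for WT SNI over WT naive was 4.93. Without them no WT naive UMI was left, and the value of -1.19 was computed against the floor of 3 UMIs. Its sign thus comes from the floor and does not show a lower level in WT SNI. B2m, the MHC class I light chain, was lower in WT SNI, at 170.5 CPM in WT SNI and 392 CPM in WT naive nuclei, a log2 ratio of -1.20 (-2.04 to -0.32), but 0.44 in nuclei without mural UMIs. Btg2, an antiproliferative immediate early gene, had a log2 ratio of 1.25 (-0.08 to 2.94), and -0.14 in those nuclei. Of 11 named genes past 2-fold, 7 stayed past it without the 3 deepest nuclei (not B2m, Hbb-bs, Npas3, Tek) and 6 in nuclei without mural UMIs (not B2m, Btg2, Hbb-bs, Id1, Tek). With every nucleus weighted alike 9 did (not B2m, Ly6a).

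Of 1021 genes compared in both injury contrasts, which share no library, 306 were above a log2 ratio of 0 in both, 17 of them with both intervals above 0, and 189 were below 0 in both, 8 of them with both intervals below. The other compared genes, the larger part, did not share a sign, and the genes below were picked because they did. Ly6a, the surface antigen Sca-1 of brain endothelium, was at 673 CPM in KO SNI, 796 CPM in WT SNI, 399 CPM in KO naive and 372 CPM in WT naive nuclei, with log2 ratios of 0.75 (0.41 to 1.11) in the knockout and 1.10 (0.40 to 1.87) in wild type. Igfbp7, an IGF-binding protein of vessels, was at 726 CPM in KO SNI, 1075 CPM in WT SNI, 478 CPM in KO naive and 549 CPM in WT naive nuclei, with 0.60 (0.28 to 0.93) and 0.97 (0.40 to 1.59) in the same order. Bsg, basigin, a glycoprotein of barrier endothelium, was at 4904 CPM in KO SNI, 5032 CPM in WT SNI, 3396 CPM in KO naive and 3645 CPM in WT naive nuclei, with 0.53 (0.41 to 0.65) and 0.47 (0.24 to 0.70). Tmsb4x, thymosin beta 4, was at 2661 CPM in KO SNI, 2836 CPM in WT SNI, 1811 CPM in KO naive and 1822 CPM in WT naive nuclei, with 0.56 (0.39 to 0.72) and 0.64 (0.32 to 0.97). For these 4 genes both SNI libraries lay above both naive libraries. In other nuclei Tmsb4x had log2 ratios of 0.54 and 1.23, so that difference was not confined to endothelial nuclei, while Igfbp7 had -0.03 and 0.28. The capillary list had summed log2 ratios of 0.19 (0.09 to 0.29) in the knockout and -0.15 (-0.31 to 0.01) in wild type, and barrier transporters 0.24 (0.17 to 0.30) and 0.02 (-0.10 to 0.14).

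**Figure D5:**
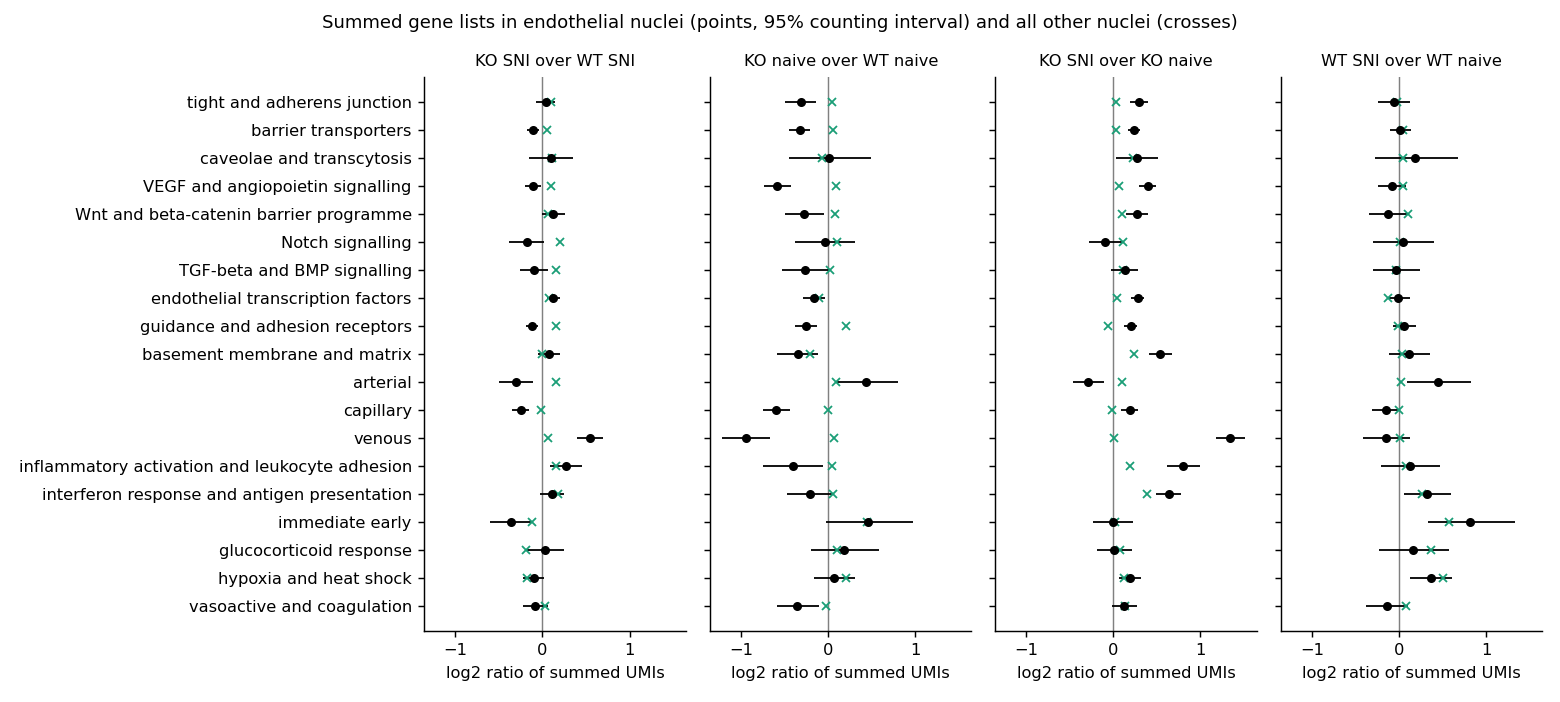
Log2 ratio of each gene list's summed UMIs in endothelial nuclei (points, bars are 95% counting intervals) and in all other kept nuclei (crosses) for KO SNI over WT SNI, KO naive over WT naive, KO SNI over KO naive and WT SNI over WT naive. The venous list stands out in KO SNI over KO naive at 1.34 and lies at -0.94 in KO naive over WT naive.

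Genotype after injury was read from KO SNI over WT SNI, with 4362 genes compared. Of these, 128 were at least 2-fold higher in KO SNI (2.93%) and 86 lower (1.97%), 4.91% in all, with a median log2 ratio of 0.03. The venous list had 2 of 10 compared genes at least 2-fold higher, a median of 0.87 and a summed log2 ratio of 0.55 (0.40 to 0.70). That sum was 0.28 without the 3 deepest nuclei of each library and -0.016 in nuclei without mural UMIs. Vwf had a log2 ratio of 0.90 (0.41 to 1.40) and 0.27 without the richest nuclei. Flrt2, a fibronectin leucine-rich repeat protein, was at 529.7 CPM in KO SNI, 196 CPM in WT SNI, 261 CPM in KO naive and 392 CPM in WT naive nuclei, a log2 ratio of 1.43 (0.92 to 1.98). Usp53 had 1.25 (0.70 to 1.84) and Col4a1 1.20 (0.62 to 1.82), the second 0.96 without the richest nuclei. Calcrl, the receptor for adrenomedullin and CGRP, was at 280.4 CPM in KO SNI, 114 CPM in WT SNI, 158 CPM in KO naive and 255 CPM in WT naive nuclei, a log2 ratio of 1.30 (0.62 to 2.05).

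Genes lower in KO SNI than in WT SNI included the ligand genes Pdgfb and Tnfsf12. Pdgfb, the ligand that recruits pericytes, was at 128 CPM in KO SNI, 294 CPM in WT SNI, 103 CPM in KO naive and 176 CPM in WT naive nuclei, a log2 ratio of -1.20 (-1.82 to -0.60). Tnfsf12, the cytokine TWEAK, had 10 UMIs in KO SNI, 21 UMIs in WT SNI, 5 UMIs in KO naive and 3 UMIs in WT naive nuclei, a log2 ratio of -1.80 (-3.05 to -0.65). Tbc1d4 had a log2 ratio of -1.08 (-1.44 to -0.72), Btg2 of -1.31 (-2.03 to -0.62) and Smox, spermine oxidase, of -1.79 (-2.92 to -0.74). For Pdgfb and Tbc1d4 WT SNI was the highest of the 4 libraries. Immediate early genes had a summed log2 ratio of -0.37 (-0.60 to -0.13), against -0.12 in other nuclei. Hbb-bs, with its 1 rich WT SNI nucleus, had -6.59. In nuclei without mural UMIs it had 1.10, computed with the floor of 3 UMIs in place of no KO SNI UMI. That sign thus comes from the floor. Gabrb1 had -1.05 (-1.73 to -0.39), and near 0 in those nuclei. Of 21 named genes past 2-fold, 16 stayed past it without the 3 deepest nuclei (not Adgrg6, Apod, Col4a1, Gabrb1, Myof), and 11 of 20 in nuclei without mural UMIs (not Adgrg6, Apod, Ctsc, Gabrb1, Hbb-bs, Lrmda, Myof, Smox, Tll1). With every nucleus weighted alike 13 of 21 did (not Adgrg6, Apod, Ctsc, Gabrb1, Myof, Tbc1d4, Tll1, Vcam1). Tbc1d4 was no longer past 2-fold without marked doublets.

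Genotype without injury was read from KO naive over WT naive, with 1041 genes compared. Of these, 109 were at least 2-fold higher in KO naive (10.5%) and 27 lower (2.59%), 13.1% in all, with a median log2 ratio of 0.09. Cdh18, Npas3 and Pcdh9, which were below their level in other nuclei, were among the highest. Cdh18, a cadherin of neurons, was at 315 CPM in KO SNI, 217 CPM in WT SNI, 514 CPM in KO naive and 58.8 CPM in WT naive nuclei, a log2 ratio of 3.13 (1.55 to 5.42). Npas3, a neural transcription factor, was at 280.4 CPM in KO SNI, 269 CPM in WT SNI, 549 CPM in KO naive and 78.4 CPM in WT naive nuclei, a log2 ratio of 2.81 (1.42 to 4.71). Pcdh9, a protocadherin, was at 2091 CPM in KO SNI, 1943 CPM in WT SNI, 3242 CPM in KO naive and 1097 CPM in WT naive nuclei, a log2 ratio of 1.56 (1.17 to 1.98). Their log2 ratios in other nuclei were 0.22, 0.12 and 0.30. The neuronal rule transcripts, held under 2% of UMIs by the rule, were higher in KO naive as well (above).

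Endothelial lists were lower in KO naive than in WT naive in several cases. The 24 endothelial markers outside the rule were lower as well, at 9167 CPM in KO naive and 11562 CPM in WT naive nuclei. The junction list had a summed log2 ratio of -0.31 (-0.49 to -0.13). A lower sum was thus not particular to the lists below, and the part of this general difference in them was not tested. The VEGF list, with the rule genes Flt1, Tek and Ptprb, had a summed log2 ratio of -0.58 (-0.74 to -0.42). These 3 genes chose the nuclei, so this sum in part describes the selection. The capillary list had -0.59 (-0.75 to -0.43), with 8 of 8 compared genes below 0. Barrier transporters, with the rule gene Slco1a4, had -0.33 (-0.45 to -0.21). Without the 3 deepest nuclei the transporter sum was -0.015. The venous sum was -0.94 (-1.22 to -0.66), and -1.41 in nuclei without mural UMIs. Il1r1 and Vwf did not reach the depth limit for this contrast, at the UMIs given above. Car4 was at 308 CPM in KO naive and 588 CPM in WT naive nuclei, a log2 ratio of -0.93 (-1.56 to -0.27). Zfp366 was at 517 CPM in KO SNI, 331 CPM in WT SNI, 261 CPM in KO naive and 549 CPM in WT naive nuclei, a log2 ratio of -1.07 (-1.73 to -0.38) for KO naive over WT naive. Lef1 had -0.84 (-1.24 to -0.42) and Tek, a rule gene, -1.13 (-1.65 to -0.58). Of 14 named genes past 2-fold, 11 stayed past it without the 3 deepest nuclei, with Tek, Zfp366 and B2m no longer past it, and 12 with every nucleus weighted alike (not Apod, Dusp1).

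Of 1041 genes compared in both genotype contrasts, which share no library, 366 were above a log2 ratio of 0 in both, 20 with both intervals above 0, and 211 below 0 in both, 19 with both intervals below. The other compared genes did not share a sign, and the genes below were picked because they did. Acer2, an alkaline ceramidase, was at 333 CPM in KO SNI, 522 CPM in WT SNI, 170.0 CPM in KO naive and 549 CPM in WT naive nuclei, with log2 ratios of -0.65 (-1.05 to -0.24) after injury and -1.69 (-2.41 to -0.95) in naive cord. Ramp2, the partner of Calcrl in the adrenomedullin receptor, was at 330.3 CPM in KO SNI, 511 CPM in WT SNI, 241 CPM in KO naive and 568 CPM in WT naive nuclei, with -0.63 (-1.04 to -0.22) and -1.24 (-1.90 to -0.55). Igf1r, the IGF-1 receptor, was at 2231 CPM in KO SNI, 3017 CPM in WT SNI, 2079 CPM in KO naive and 3116 CPM in WT naive nuclei, with -0.44 (-0.60 to -0.28) and -0.58 (-0.84 to -0.32). Sgms1, a sphingomyelin synthase, was at 1692 CPM in KO SNI, 2134 CPM in WT SNI, 1498 CPM in KO naive and 2234 CPM in WT naive nuclei, with -0.33 (-0.52 to -0.15) and -0.58 (-0.88 to -0.26). For these 4 genes both KO libraries lay below both WT libraries. Ptgds, prostaglandin D synthase, was at 249.3 CPM in KO SNI, 490.8 CPM in WT SNI, 193.7 CPM in KO naive and 607.5 CPM in WT naive nuclei, with -0.98 (-1.42 to -0.53) and -1.65 (-2.33 to -0.95), but it was 0.71 times its level in other nuclei, where its log2 ratios were -0.71 and -1.01. In other nuclei Ramp2 had 0.02 and 0.57, Acer2 -0.42 and -0.18, and Igf1r 0.08 and 0.19. Apod, apolipoprotein D, was at 552 CPM in KO SNI, 253 CPM in WT SNI, 261 CPM in KO naive and 78.4 CPM in WT naive nuclei, with 1.12 (0.66 to 1.61) and 1.73 (0.31 to 3.65), the first -0.23 in nuclei without mural UMIs.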

How the data were processed

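Raw UMI count matrices of 4 single-nucleus libraries, deposited by the authors, were used; Cell Ranger 7.0.0 made them, per the file headers. GRCm38, R 4.3.0 and Seurat 4.3.0 are named in the submitters' processing notes without a role. Of 32285 feature IDs, 32158 matched GENCODE vM21, used only for positions. Counts of endothelial nuclei were summed per library and divided by their total without mitochondrial genes (CPM). Log2 ratios carry exact conditional binomial intervals, levels exact Poisson and shares Clopper-Pearson intervals, at 95%. Genes without a UMI in 1 group carry a lower bound, computed against 3 UMIs per library. The ratio script was tested on simulated counts. No p-value was computed, since each group is 1 library.

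Doublets were scored with scrublet in scanpy 1.11.5 (expected 10%). Its automatic threshold marked under 0.5% of nuclei in 3 libraries, where scores above the 90th percentile were marked instead. Python 3.11.15, NumPy 2.4.6, SciPy 1.17.1, pandas 2.3.3 and matplotlib 3.10.9 were used. The nuclei, gene lists and contrasts were chosen with earlier results of these data known. Named genes are the markers, of each list up to 4 members of highest level and up to 4 of largest ratio in a contrast, the 15 (or, for the contrasts with WT naive, 8) highest and lowest compared genes by the limit nearest to 0, up to 10 genes of 1 direction in both contrasts of a factor, and the 30 genes highest over other nuclei. The text gives a part of these, and some items are not reported here. Alternatives changed the gate, the neuron, doublet and depth limits, the weighting and the scaling.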

Additional observations from a re-analysis of the deposited data

Results flagged for a closer look

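These results have opposite signs in the 2 contrasts of a factor, each with a counting interval on its own side of 0. With 1 library per group the difference was not tested, and the contrasts with WT naive rest on 38 nuclei.

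Injury ratios compare KO SNI with KO naive and WT SNI with WT naive. Zfp366 had an injury log2 ratio of 0.99 in the knockout and -0.73 in wild type. Lef1 had an injury log2 ratio of 0.63 in the knockout and -0.44 in wild type. For Pltp, the phospholipid transfer protein, they were 0.49 in the knockout and -0.51 in wild type. Flrt2 had an injury log2 ratio of 1.02 in the knockout and -1.00 in wild type. Arl15 had an injury log2 ratio of -0.27 in the knockout and 0.87 in wild type. Npas3 and Pcdh9 went the other way, Npas3 with -0.97 in the knockout and 1.78 in wild type, and Pcdh9 with -0.63 in the knockout and 0.82 in wild type. The summed arterial list had -0.29 in the knockout and 0.45 in wild type, where Arl15 is its 1 compared gene.

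Genotype ratios compare KO SNI with WT SNI and KO naive with WT naive. Values were Zfp366 0.65 after injury and -1.07 in naive cord, Pltp 0.35 after injury and -0.65 in naive cord, and Arl15 -0.49 after injury and 0.66 in naive cord. For neuronal transcripts they were Gabrb1 -1.05 after injury and 1.82 in naive cord, and Kcnip4 -0.39 after injury and 0.71 in naive cord. The venous list had 0.55 after injury and -0.94 in naive cord, and the inflammatory list 0.27 after injury and -0.40 in naive cord. The arterial list had -0.30 after injury and 0.44 in naive cord, and endothelial transcription factors 0.12 after injury and -0.16 in naive cord. The 1 inflammatory gene compared in naive cord was above 0, at 0.43, against its list's negative sum. After injury 3 of 5 compared arterial genes were above 0, and 12 of 22 compared transcription factors below 0. The opposite signs of these lists thus hold for the sums and not for most compared genes. The venous sum after injury was 0.28 without the 3 deepest nuclei and -0.016 without mural UMIs, and Gabrb1 after injury was 0.0006 without mural UMIs, so the opposite signs of both do not hold in that setting.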

How the results depend on the processing

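No paired analysis was possible because each group has 1 library. Median-ratio scaling and a limit on glial markers kept the list sums within their counting error and the counts within 1.5-fold. Settings without mural UMIs, without the 3 deepest nuclei and without the richest nucleus were chosen after seeing the data. The share of nuclei without mural UMIs was 0.237% in KO SNI, 0.188% in WT SNI, 0.168% in KO naive and 0.122% in WT naive. The KO naive share of endothelial nuclei was 0.245% with a stricter gate (6 UMIs and 0.5%) and 0.267% with neuronal transcripts under 1%, and that of WT naive 0.135% after thinning to 1000 UMIs.

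Counts of genes past 2-fold were 214 for KO SNI over WT SNI, 136 for KO naive over WT naive, 453 for KO SNI over KO naive and 60 for WT SNI over WT naive. In that order they were 743, 413, 1066 and 298 with 5 predicted UMIs, 43, 42, 140 and 11 with 20, 955, 383, 1476 and 256 at 1.5-fold, and 495, 210, 793 and 132 with each nucleus weighted alike. Without mural UMIs they were 127 of 984 compared (12.9%), 65 of 273 compared (23.8%) and 192 of 1502 compared (12.8%) in the first 3, a larger share of fewer compared genes, against 4.91%, 13.1% and 8.35%. Without the 3 deepest nuclei it was 54 of 599 compared (9.02%) in KO naive over WT naive.

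For KO SNI over WT SNI the transporter sum of -0.11 was -0.19 with the stricter gate, -0.027 without doublets, -0.0035 without the 3 deepest nuclei, 0.023 without mural UMIs and 0.085 with nuclei weighted alike. Its venous sum was 0.28, -0.016 and 0.15 under the last 3, and its interferon sum -0.42 without mural UMIs, against 0.10. For KO naive over WT naive the transporter sum was -0.015 without the 3 deepest nuclei, -0.11 without mural UMIs and -0.18 without the richest nucleus. The venous sum was -1.41 without mural UMIs, and the interferon sum of -0.20 was 0.089 without the 3 deepest nuclei and -0.61 without mural UMIs.

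For KO SNI over KO naive the transporter sum was 0.081 with the stricter gate, 0.31 without doublets, 0.37 without the 3 deepest nuclei, 0.12 without mural UMIs and 0.32 without the richest nucleus. The venous sum was 1.04 without the 3 deepest nuclei, 0.99 without mural UMIs and 0.99 with nuclei weighted alike. The interferon sum was 0.84 without the 3 deepest nuclei, 0.83 with nuclei weighted alike and 0.79 without the richest nucleus. For WT SNI over WT naive the transporter sum was 0.36 without the 3 deepest nuclei and 0.19 without the richest nucleus, and the interferon sum 0.74 without the 3 deepest nuclei. The cause of these differences was not tested.

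Without mural UMIs the sign turned for Apod (-0.23), Gabrb1 (0.0006) and Hbb-bs (1.10) in KO SNI over WT SNI, for Dusp1 and Vegfc (0.050 each) in KO SNI over KO naive, and for B2m (0.44), Btg2 (-0.14) and Hbb-bs (-1.14) in WT SNI over WT naive. Hbb-bs was also -1.19 there without its richest nucleus. Its 1.10 and -1.19 were computed with the floor of 3 UMIs in place of no UMI, and its -1.14 rests on very few UMIs. The Hbb-bs signs in these settings thus do not show a reversal. The Gabrb1, Dusp1 and Vegfc values lie near 0. Of the values recomputed, 3539 stayed within counting error or 1.5-fold, and 479 moved further, some of them across 0 as given above. In 9, those of Hbb-bs included, a log2 ratio past 2-fold changed sign.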

Other observations

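Further lists were measured in endothelial nuclei and are given as values. Vasoactive and coagulation genes summed to 3057 CPM in KO SNI, 3234 CPM in WT SNI, 2799 CPM in KO naive and 3566 CPM in WT naive nuclei. Guidance and adhesion receptors, with the rule genes Adgrl4 and Pecam1, summed to 12039.8 CPM in KO SNI, 13086 CPM in WT SNI, 10499 CPM in KO naive and 12522 CPM in WT naive nuclei. Hypoxia and heat shock genes summed to 4094 CPM in KO SNI, 4397 CPM in WT SNI, 3581 CPM in KO naive and 3409.7 CPM in WT naive nuclei, with log2 ratios of 0.19 (0.07 to 0.32) for KO SNI over KO naive and 0.37 (0.13 to 0.61) for WT SNI over WT naive, against 0.12 and 0.50 in other nuclei. Glucocorticoid response genes summed to 1477 CPM in KO SNI, 1447 CPM in WT SNI, 1467 CPM in KO naive and 1293 CPM in WT naive nuclei, and circadian clock genes to 1785 CPM in KO SNI, 1602 CPM in WT SNI, 1996 CPM in KO naive and 1548 CPM in WT naive nuclei. Caveolae and transcytosis genes summed to 1119 CPM in KO SNI, 1049 CPM in WT SNI, 929 CPM in KO naive and 921 CPM in WT naive nuclei. Genes of sprouting tip cells had 56 UMIs in KO SNI, 14 UMIs in WT SNI, 33 UMIs in KO naive and 3 UMIs in WT naive nuclei, and lymphatic or fenestrated genes 108 UMIs in KO SNI, 74 UMIs in WT SNI, 75 UMIs in KO naive and 19 UMIs in WT naive nuclei.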
